A study of Homo sapiens with 6 samples.

Results

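Alpha and beta tubulins are the protein pair from which microtubules are built, and the genes that encode them were examined in Rh30 cells after treatment with the small molecule YK-4-279. The members were 10 alpha and beta tubulin isotype genes, TUBA1A, TUBA1B, TUBA1C, TUBA4A, TUBB, TUBB2A, TUBB2B, TUBB3, TUBB4B and TUBB6, taken by symbol from a table of 35268 named genes. All 10 were in the table, and all 10 were among the 13930 genes whose mean was at least 10 normalized counts over the libraries. Rh30 is an established cell line of fusion-positive rhabdomyosarcoma, a childhood cancer of the skeletal muscle lineage. Cells were given 1 µM YK-4-279 in DMSO, or DMSO alone, for 24 hours, and polyadenylated RNA was sequenced from 3 libraries per group. YK-4-279 is described as an inhibitor of ETS family transcription factors, and tubulin also served as the loading control of immunoblots in the study.

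Every alpha tubulin pairs with a beta tubulin into a heterodimer, heterodimers join end to end and side to side into microtubules, and microtubules form the mitotic spindle and the tracks of intracellular transport. Vertebrate genomes carry several genes for each partner, whose products differ mostly near the carboxyl terminus and in the tissues that make them. Cells are known to adjust tubulin mRNA to the amount of unpolymerized tubulin, through the protein TTC5, which recognizes tubulin chains as they leave the ribosome, and through decay of their mRNA. These statements are background and not results of these libraries.

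The values were normalized counts, that is, reads per gene divided by a factor of each library, and each value gave a whole read when divided by the smallest value of its library. The DMSO libraries held 16724650, 20771226 and 24677433 reads in replicates 1, 2 and 3. The YK-4-279 libraries held 23230675, 18752655 and 19876724 reads. The 10 tubulin genes took 0.344%, 0.342% and 0.332% of the reads with DMSO and 0.280%, 0.292% and 0.280% with YK-4-279, so that each treated library lay below each control library. Of the 6 libraries, DMSO replicate 1 was the least like the rest (mean correlation 0.989, where no other library was under 0.992), and its share of mitochondrial reads was the largest, 6.05% where no other exceeded 5.03%. For each of the 10 genes, a limma adjusted p is therefore also given without this library. The labels number the replicates but do not say that they were separate cultures, so p-values measure only the spread between these libraries, which may be technical. In such bulk RNA, fewer cells with a transcript and less of it per cell cannot be told apart.

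The muscle identity of the cells was checked against markers. Of 12 markers of the muscle lineage and of fusion-positive rhabdomyosarcoma, 10 had a mean of at least 10, MYOD1 was the most abundant with a mean of 36993 normalized counts, and MYF5 and MYF6 were at or near 0. Their summed level was 95125, 109431 and 105976 normalized counts in DMSO replicates 1, 2 and 3 and 105792, 105147 and 100769 in YK-4-279 replicates 1, 2 and 3. Of the 10, MYOG, DES and CHRNG were higher in every treated library than in every control, a pattern of 10.9% of all genes tested, and FOXO1 was lower, a pattern of 15.1%. MYOG was separated by less than 2 normalized counts. The log2 fold changes of these 4, in that order, were 0.23, 0.14, 0.11 and -0.25, or 0.08, 0.08, 0.12 and -0.14 when DMSO replicate 1 was left out. Over all marker lists 0 genes had a limma adjusted p under 0.05 (Benjamini-Hochberg), beside 3.41% of all genes. When DMSO replicate 1 was left out, 3 did, beside 13.1% of all genes. These were CDH15, FOXO1 and FGFR4, all lower, with log2 fold changes of -0.14, -0.14 and -0.17. Of 8 neuronal markers, NEFL, NEFM and ELAVL4 were at 0 in every library, and DCX, which encodes a microtubule-binding protein, accounted for nearly all of the summed level of 14053 to 16534 normalized counts. The summed levels of the endothelial, epithelial and hematopoietic lists were at most 117, 177 and 24.0 normalized counts in any library, with TIE1, EPCAM and CD14 as their most abundant genes. PTPRC and KRT5 had at most 1 read in any library.

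With YK-4-279, 5 of the 10 tubulin genes were lower and 0 were higher at a limma adjusted p under 0.05 (Benjamini-Hochberg, two-sided, over the 13930 genes). Over all genes tested, 2.15% were called lower and 1.26% higher, 3.41% in either direction. The 5 genes were TUBA1B, TUBB, TUBB4B, TUBA4A and TUBA1C, and they were also the ones in which all 3 treated libraries lay below all 3 controls, a pattern found in 15.1% of the genes tested. The median log2 fold change of the 10 genes was -0.18, beside -0.01 for all genes tested, with 6 genes below 0 and 4 above. The count was also 5 without DMSO replicate 1, where 13.1% of all genes were called. It was 3 and 4 without DMSO replicates 2 and 3, beside 4.85% and 1.74% of all genes, and 0, 3 and 2 without YK-4-279 replicates 1, 2 and 3, beside 0.136%, 0.165% and 0.330%. Without YK-4-279 replicate 1, where the limma count was 0, 5 tubulin genes had an unadjusted p under 0.05. Over all genes tested, 1628 of 13930 did so in that fit. With all libraries, edgeR's quasi-likelihood test on the recovered reads called 4 of the 10, beside 3.34% of all genes. DESeq2 called 5, beside 4.56% of the 13930 genes, of which 2161, TUBB3 among them, were given no adjusted p. Quantile normalization and a replicate block gave 3 each in limma, beside 1.99% and 1.29% of all genes, and eBayes without trend gave 0, beside 0.237%.

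**Figure D1:**
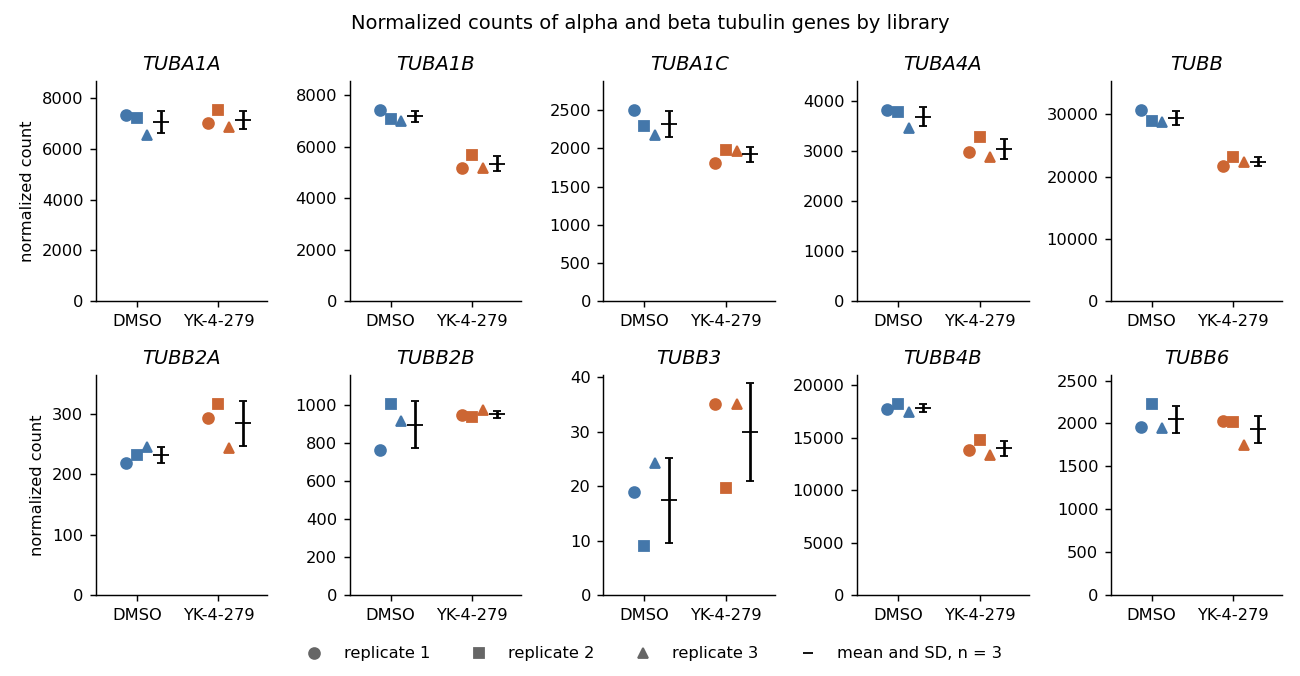
Normalized counts of each tubulin gene in the 3 DMSO libraries (blue) and the 3 YK-4-279 libraries (orange), with marker shape for the replicate number and a black dash and bar for the mean and SD of each group. In TUBA1B, TUBA1C, TUBA4A, TUBB and TUBB4B the groups did not overlap, and in the other genes they did; each vertical axis starts at 0.

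The members were compared in sequence and position, with annotation from GENCODE v44 on hg38. TUBA1B lies on chromosome 12 from 49127782 to 49131397 and TUBA1A from 49184686 to 49189080, both on the minus strand, and TUBA1C spans 49188736 to 49274600 on the plus strand. TUBB lies on chromosome 6 from 30717435 to 30725538, and TUBB2A and TUBB2B are neighbours on the same chromosome, from 3153497 to 3157544 and from 3223324 to 3231730. TUBB4B is on chromosome 9 from 137241287 to 137243707, TUBA4A on chromosome 2 from 219249710 to 219277902, TUBB3 on chromosome 16 from 89921392 to 89938761, and TUBB6 on chromosome 18 from 12307669 to 12344320. The canonical transcript of each gene has 4 exons. The coding sequences of TUBA1A and TUBA1B were identical at 97.2% of aligned bases, those of TUBA1A and TUBA1C at 95.9%, and those of TUBB2A and TUBB2B at 98.1%, whereas TUBB and TUBB4B shared 84.4% and TUBA1A and TUBB 54.4%.

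Such likeness bears on the counts, because reads were 150 bases long, in pairs, and were counted per gene by STAR, whose settings for reads that align to several genes are not given in the sources used here. Windows of a single read length were compared, and a pair of reads can differ between genes at either end, so the shares below may overstate the ambiguity of pairs. Of the windows of 150 bases in the canonical transcript, 19.1% in TUBA1B, 8.01% in TUBA1A and 7.22% in TUBA1C occurred exactly in another of these 3 genes. The share was 48.7% in TUBB2A and 41.6% in TUBB2B, with each other, with TUBB3 and with the pseudogene TUBB2BP1, and 92.3% in TUBB3, most of whose exons are also annotated to a read-through transcript of the same locus. It was 2.66% in TUBB, with a processed pseudogene, and 0% in TUBA4A, TUBB4B and TUBB6. Values of TUBB2A, TUBB2B and TUBB3 taken singly are therefore uncertain, and those of TUBA1A, TUBA1B and TUBA1C less so. Exons on the opposite strand cover 72.6% of the canonical exon bases of TUBA1B (TUBA1B-AS1), 30.6% of those of TUBA4A (STK16), 23.6% of those of TUBA1C, 21.4% of those of TUBB, 7.93% of those of TUBB4B and 6.22% of those of TUBA1A, and whether the counting used strand is not given in the sources used here. The sum of TUBA1A, TUBA1B and TUBA1C, within which reads could be moved by such sharing, was 17291, 16591 and 15740 normalized counts with DMSO and 14024, 15217 and 13988 with YK-4-279, again with no overlap. The sum of TUBB2A and TUBB2B was 981, 1238 and 1160 with DMSO and 1237, 1253 and 1214 with YK-4-279, with overlap.

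Stretches before the start sites of 4 members are shown because TUBA1A and TUBA1B lie near each other and differed in their change, and because TUBB and TUBB4B were the most abundant beta isotypes and both fell. A window was matched for 10 of 10 members in RefSeq (GRCh38.p14), at the same start site as in GENCODE, and each stretch runs from 250 to 11 bases before it, 5′ to 3′ on the strand of the gene. Those of TUBA1A (chr12:49189091-49189330, minus strand) and TUBA1B (chr12:49131406-49131645, minus strand) overlap exons annotated to TUBA1C and TUBA1B-AS1 on the other strand. Those of TUBB (chr6:30720102-30720341, plus strand) and TUBB4B (chr9:137241037-137241276, plus strand) overlap no annotated exon. Capitals mark the letters CCAAT or GGGCGG, read on either strand, so that they also appear as ATTGG or CCGCCC.
TUBA1A: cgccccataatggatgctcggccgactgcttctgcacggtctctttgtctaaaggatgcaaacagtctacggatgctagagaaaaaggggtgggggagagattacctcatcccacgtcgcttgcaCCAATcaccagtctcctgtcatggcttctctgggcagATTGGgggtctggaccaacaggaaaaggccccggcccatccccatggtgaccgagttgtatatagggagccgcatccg
TUBA1B: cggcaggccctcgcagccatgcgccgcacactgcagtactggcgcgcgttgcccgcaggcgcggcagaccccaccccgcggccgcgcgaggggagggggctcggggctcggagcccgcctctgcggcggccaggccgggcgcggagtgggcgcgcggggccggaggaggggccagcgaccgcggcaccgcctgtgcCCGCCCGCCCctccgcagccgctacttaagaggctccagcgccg
TUBB: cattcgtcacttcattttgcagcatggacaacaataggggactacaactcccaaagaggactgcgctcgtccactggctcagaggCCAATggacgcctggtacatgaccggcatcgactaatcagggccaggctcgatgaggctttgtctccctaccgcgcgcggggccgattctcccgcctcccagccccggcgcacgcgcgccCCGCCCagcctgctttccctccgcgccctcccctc
TUBB4B: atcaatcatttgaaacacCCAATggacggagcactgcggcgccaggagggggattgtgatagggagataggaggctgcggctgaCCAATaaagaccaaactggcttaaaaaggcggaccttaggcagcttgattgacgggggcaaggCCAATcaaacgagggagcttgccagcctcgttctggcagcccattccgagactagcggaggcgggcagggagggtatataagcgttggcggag
CCAAT stood in 7 of the 10 member windows and in 31.4% of the 35116 windows of 240 bases in the table, and GGGCGG in 8 of 10 and in 41.4%. TUBA1A held CCAAT 2 times and TUBB4B 3 times, neither held GGGCGG, and TUBA1B held GGGCGG 2 times, in matches that overlap each other. TUBB held 1 of each. TATAAA stood in 1 member window, that of TUBB2A, and in 10.6% of all windows. CCGGAAG, an extended form of the ETS binding site, stood in 0 of 10 and in 7.68% of all. The shorter core of such sites, GGAA, was not searched. GC bases made up 80.8% of the window of TUBA1B, 64.2% in TUBB, 56.7% in TUBB4B and 56.2% in TUBA1A. A match is a description of letters, and its absence says only that they are not in this window.

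Among the alpha tubulin genes, TUBA1B, which encodes a broadly expressed alpha isotype, had 7438, 7081 and 7017 normalized counts in DMSO replicates 1, 2 and 3 and 5194, 5697 and 5158 in YK-4-279 replicates 1, 2 and 3. The highest treated library lay well below the lowest control library. The mean fell from 7179 ± 227 to 5349 ± 302 (SD, n = 3 each), or by a log2 fold change of -0.43 (95% confidence interval -0.55 to -0.30, limma adjusted p = 0.00329). Without DMSO replicate 1 it was -0.40 (limma adjusted p = 5.2e-10), and without YK-4-279 replicate 1 the call was lost, with an adjusted p of 0.0580. Over the 17 alternatives the change of TUBA1B ranged from -0.47 to -0.37, with adjusted p-values from 5.2e-10 to 0.0883, and 15 of them called it.

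TUBA1A, the alpha isotype known for its abundance in developing neurons, had 7350, 7226 and 6554 normalized counts in the DMSO replicates and 7024, 7538 and 6861 in the YK-4-279 replicates. The groups overlapped, and the highest value of all was in a treated library. The means were 7043 ± 428 and 7141 ± 353 (SD, n = 3 each), and the log2 fold change, 0.02, had a 95% confidence interval from -0.11 to 0.15 (limma adjusted p = 0.895). Leaving out DMSO replicate 1 gave 0.05 (limma adjusted p = 0.486). Its sign depended on the setting, being below 0 in 3 of 17 alternatives, over a range of -0.03 to 0.07, and it was called in 0 of them.

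TUBA4A, an alpha isotype whose gene encodes no carboxyl-terminal tyrosine, had 3831, 3785 and 3470 normalized counts with DMSO and 2988, 3277 and 2880 with YK-4-279. All treated libraries were below all controls, YK-4-279 replicate 2 being nearest to them. The mean fell from 3695 ± 196 to 3049 ± 205 (SD, n = 3 each), or by a log2 fold change of -0.28 (95% confidence interval -0.42 to -0.14, limma adjusted p = 0.0372). Without DMSO replicate 1 it was -0.25 (limma adjusted p = 8.6e-05). The call was lost without DMSO replicate 2 (adjusted p = 0.0562) and without YK-4-279 replicates 1, 2 or 3 (limma adjusted p = 0.226, 0.0913 and 0.211), and 10 of 17 alternatives called it, with changes from -0.33 to -0.22.

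TUBA1C, a further alpha isotype from the same cluster on chromosome 12, had 2503, 2284 and 2169 normalized counts with DMSO and 1806, 1982 and 1969 with YK-4-279. The groups did not overlap, although the lowest control and the highest treated library were close. The mean fell from 2319 ± 169 to 1919 ± 97.9 (SD, n = 3 each), or by a log2 fold change of -0.27 (95% confidence interval -0.42 to -0.12), and its limma adjusted p of 0.0495 lay just under the threshold. With DMSO replicate 1 left out the change was -0.22 (limma adjusted p = 0.00108). In each of the other 5 fits that left out 1 library the call was lost, namely without DMSO replicates 2 and 3 and without YK-4-279 replicates 1, 2 and 3, with adjusted p-values from 0.0508 to 0.289 in limma, and 7 of 17 alternatives called it.

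Among the beta tubulin genes, TUBB, a broadly expressed isotype of dividing cells, had the most normalized counts, with 30730, 28964 and 28691 in the DMSO replicates and 21665, 23084 and 22392 in the YK-4-279 replicates. The treated libraries formed a group of their own below the controls. The mean fell from 29462 ± 1107 to 22380 ± 709 (SD, n = 3 each), or by a log2 fold change of -0.40 (95% confidence interval -0.52 to -0.28, limma adjusted p = 0.00329). Without DMSO replicate 1 it was -0.37 (limma adjusted p = 4.1e-09), and without YK-4-279 replicate 1 the adjusted p was 0.0580. The change of TUBB ranged from -0.42 to -0.34 over the 17 alternatives, with adjusted p-values from 4.1e-09 to 0.0838 and 15 calls.

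TUBB4B, a beta isotype found in many tissues and in cilia, had 17755, 18242 and 17420 normalized counts with DMSO and 13833, 14725 and 13337 with YK-4-279. Here too the groups did not overlap. The mean fell from 17806 ± 413 to 13965 ± 704 (SD, n = 3 each), or by a log2 fold change of -0.35 (95% confidence interval -0.47 to -0.23, limma adjusted p = 0.00705). Without DMSO replicate 1 it was -0.35 (limma adjusted p = 1.2e-08), and the call was lost without YK-4-279 replicate 1 or 3 (limma adjusted p = 0.0842 and 0.0676). The range over the 17 alternatives was -0.42 to -0.29, with adjusted p-values from 1.2e-08 to 0.103, and 14 called it.

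TUBB6, a beta isotype known from developing and regenerating muscle, had 1962, 2231 and 1950 normalized counts in the DMSO replicates and 2028, 2018 and 1750 in the YK-4-279 replicates. The groups overlapped, the highest value being in DMSO replicate 2 and the lowest in YK-4-279 replicate 3. The change of TUBB6 on the log2 scale was -0.08 (95% interval -0.25 to 0.08, limma adjusted p = 0.592), and -0.11 without DMSO replicate 1 (limma adjusted p = 0.170). It was -0.02 without DMSO replicate 2 (limma adjusted p = 0.904) and -0.01 without YK-4-279 replicate 3 (limma adjusted p = 0.955).

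TUBB2B, a beta isotype associated with neurons, had 763, 1005 and 914 normalized counts with DMSO and 944, 936 and 970.5 with YK-4-279. DMSO replicate 1 was the lowest, and the treated libraries lay between the lowest and the highest control. On the log2 scale the change was 0.10 (95% interval -0.10 to 0.29, limma adjusted p = 0.607), and it went to -0.01 without DMSO replicate 1 (limma adjusted p = 0.923), so that its sign rested on that library.

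TUBB2A, which is nearly identical to TUBB2B, had 218, 233 and 245 normalized counts with DMSO and 293, 317 and 243 with YK-4-279. YK-4-279 replicates 1 and 2 were above all controls, and replicate 3 lay below DMSO replicate 3. TUBB2A changed by 0.29 on the log2 scale (95% interval 0.04 to 0.53), which did not pass the threshold over all genes (limma adjusted p = 0.204, and 0.134 without DMSO replicate 1), and TUBB2A was above 0 in all 17 alternatives, from 0.20 to 0.39, with 0 calls.

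TUBB3, the beta isotype used as a marker of neurons, had 18.9, 8.99 and 24.2 normalized counts with DMSO and 35.1, 19.6 and 35.0 with YK-4-279, from 9 to 41 reads in a library. The groups overlapped at this depth. Its log2 fold change of 0.80 had a 95% confidence interval of 0.02 to 1.59 and a limma adjusted p of 0.259, or 0.0774 without DMSO replicate 1. With single libraries left out the change ranged from 0.42 without DMSO replicate 2 (limma adjusted p = 0.485) to 1.08 without DMSO replicate 3 (limma adjusted p = 0.160). The pseudocount of 1 understates changes of genes with so few reads.

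**Figure D2:**
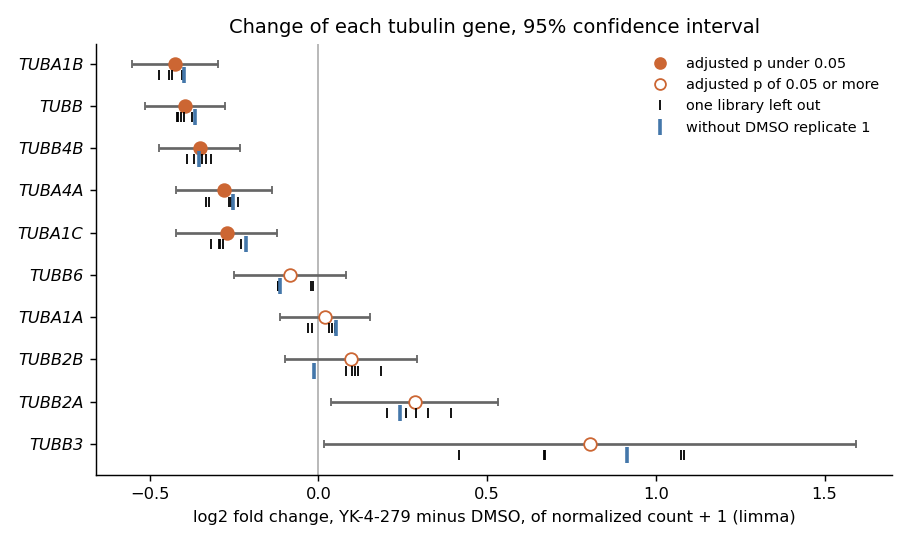
Log2 fold change of each tubulin gene (YK-4-279 minus DMSO, on the scale of normalized count + 1), with circles for the estimate from 6 libraries, filled where the limma adjusted p was under 0.05, and bars for the 95% confidence interval. Ticks under each bar give the 6 fits that left out 1 library, blue for the one without DMSO replicate 1; the 5 filled genes stayed between -0.47 and -0.22 in those fits.

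Among the 13930 genes tested, TUBA1B, TUBB and TUBB4B ranked 231, 299 and 404 from the lowest log2 fold change. TUBA4A and TUBA1C ranked 796 and 836. The place of the tubulin genes among all genes by abundance and change is drawn in the plot of all genes tested.

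**Figure D3:**
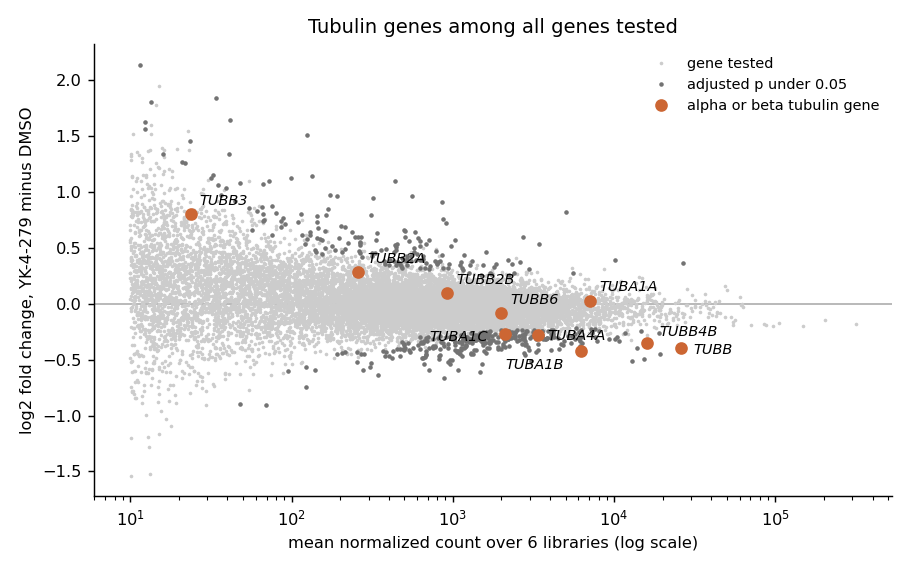
Log2 fold change (YK-4-279 minus DMSO) against the mean normalized count over 6 libraries, on a log axis, for the 13930 genes tested (light grey), the 475 with a limma adjusted p under 0.05 (dark grey) and the 10 tubulin genes (orange). TUBB and TUBB4B lie below 0 at the abundant end of the range, whereas TUBA1A, of similar abundance to TUBA1B, lies at 0.02.

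Levels were compared between isotypes per kilobase of the canonical transcript. With DMSO, TUBB had 11714 ± 440 and TUBB4B 11392 ± 264 normalized counts per kilobase (SD, n = 3 each), and the libraries of these genes overlapped. TUBA1B followed with 4412 ± 140 and TUBA1A with 4212 ± 256, which also overlapped. TUBA4A had 1803 ± 95.8, TUBB6 1090 ± 84.7, TUBA1C 821 ± 60.0 and TUBB2B 465 ± 63.7 normalized counts per kilobase, each separated from its neighbours in all 3 control libraries. TUBB2A had 144 ± 8.47 and TUBB3 10.2 ± 4.53. With YK-4-279, TUBB4B and TUBB had 8935 ± 450 and 8899 ± 282 and overlapped as before. TUBA1A, at 4271 ± 211, then lay above TUBA1B, at 3288 ± 185, in every treated library, and the genes from TUBA4A downwards kept their order of means.

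The summed alpha isotypes were 11723, 11330 and 10695 normalized counts per kilobase in the DMSO replicates and 9491, 10312 and 9377 in the YK-4-279 replicates. Every treated library was below every control, and the mean fell by 13.5%. The summed beta isotypes were 25165, 25048 and 24233 with DMSO and 19237, 20368 and 19043 with YK-4-279, where the mean fell by 21.2%. The ratio of summed beta to summed alpha levels was 2.15, 2.21 and 2.27 with DMSO and 2.03, 1.98 and 2.03 with YK-4-279. These sums are descriptions of the 10 genes and were not tested.

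**Figure D4:**
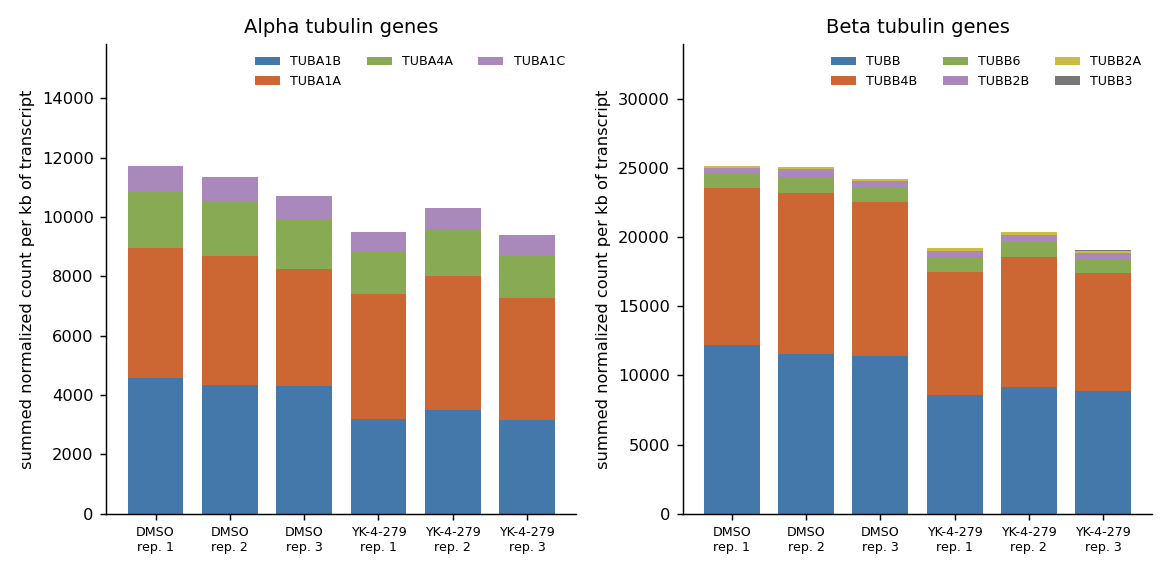
Summed normalized counts per kilobase of canonical transcript of the alpha (left) and beta (right) tubulin genes in each library, with 1 color per gene stacked in order of abundance. The alpha stacks stand at 10695 to 11723 with DMSO and 9377 to 10312 with YK-4-279, and the beta stacks at 24233 to 25165 and 19043 to 20368, while the TUBA1A segment is of like height in all 6 libraries.

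Within the alpha pool, TUBA1A made up 37.5%, 38.1% and 36.7% in the DMSO replicates and 44.3%, 43.7% and 43.8% in the YK-4-279 replicates. The share of TUBA1B went the other way, from 39.2% ± 0.981 to 33.8% ± 0.163 (SD, n = 3 each), so that per kilobase the larger of the pair was TUBA1B in each control library and TUBA1A in each treated one. The order in the controls rested on the division by length, since in DMSO replicate 2 TUBA1A had the more normalized counts. The share of TUBA4A was 16.0% ± 0.245 with DMSO and 15.3% ± 0.268 with YK-4-279, and that of TUBA1C was 7.30% ± 0.232 with DMSO and overlapped with YK-4-279. Within the beta pool, TUBB took 47.2% ± 1.29 and 45.5% ± 1.07, and TUBB4B took 45.9% ± 0.732 and 45.7% ± 0.774, with overlap in both genes. That these shares were alike with DMSO rested on the length used, since TUBB and TUBB4B took 43.1% and 52.0% with the lengths of all annotated exons and 58.4% and 35.3% with no division by length. The smaller shares of TUBB6, TUBB2B and TUBB2A were higher in each treated library than in each control, at 4.39% ± 0.311 and 5.26% ± 0.361, 1.88% ± 0.266 and 2.53% ± 0.132, and 0.579% ± 0.0454 and 0.899% ± 0.0949. Shares within a pool sum to the whole, so they are not independent of each other.

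TUBA1A and TUBA1B were set against each other in the ratio of their normalized counts, a comparison chosen after their values had been seen. The log2 ratio of TUBA1A over TUBA1B was -0.02, 0.03 and -0.10 in the DMSO replicates and 0.44, 0.40 and 0.41 in the YK-4-279 replicates. All treated libraries lay above all controls, and the spread within each group was small beside the gap. The difference was 0.45 on the log2 scale, and also 0.45 without DMSO replicate 1 (exact permutation test, two-sided, p = 0.1, n = 3 each, which is the smallest p that 3 against 3 libraries allow). A ratio within a library does not depend on its scaling. It describes a pair picked for its values, with a test that could not reach 0.05, and the shared windows and the opposite-strand overlap named above bear on both counts. Log2 ratios of TUBB6 over TUBB and of TUBB2B over TUBB were also taken, and in both all treated libraries lay above all controls. They differed by 0.31 and 0.49 (exact permutation test, two-sided, p = 0.1 each, n = 3 each). Without DMSO replicate 1 the differences were 0.25 and 0.35.

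**Figure D5:**
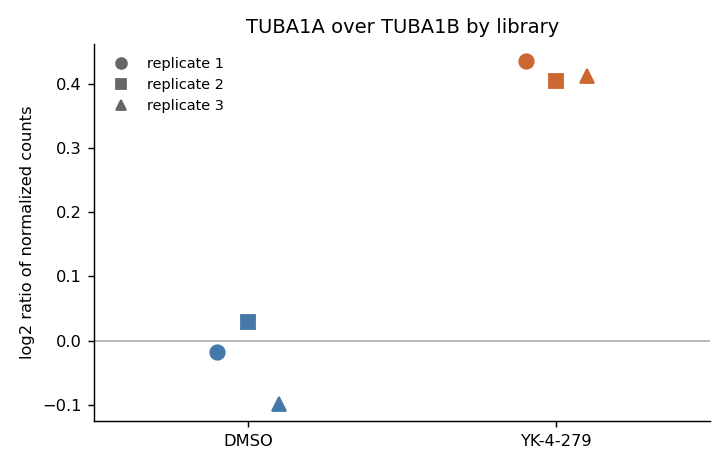
Log2 ratio of the normalized counts of TUBA1A over TUBA1B in each of the 6 libraries, DMSO in blue and YK-4-279 in orange, with marker shape for the replicate number. The control libraries lie between -0.10 and 0.03 and the treated libraries between 0.40 and 0.44; the grey line marks equal counts.

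The table held 58 genes whose symbols start with TUBA or TUBB, of which 48 were not among the 10, most of them pseudogenes. Of these 48, 25 were at 0 in every library and 4 had a mean of at least 10. Their mean levels summed to 162.3 normalized counts with DMSO and 163.7 with YK-4-279, small beside the sum of the 10 members, 70695 and 57000. Of a list of 11 other alpha and beta tubulin genes, among them the pseudogene TUBB2BP1, 2 passed the filter on the mean, TUBB1 and TUBA3D, and 0 were called, beside 3.41% of all genes. TUBB1, known as the beta tubulin of platelets, had 35.3, 40.0 and 28.4 normalized counts with DMSO and 23.1, 20.6 and 19.0 with YK-4-279, at a limma adjusted p of 0.155. TUBA3C and TUBAL3 were at 0 in all 6 libraries.

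The genes through which cells act on tubulin and its mRNA were read from companion lists. In the list of tubulin mRNA autoregulation and the CCR4-NOT deadenylase, 0 of 13 genes passed the limma threshold, beside 3.41% of all genes, with a median log2 fold change of -0.10, beside -0.01 for all genes. When DMSO replicate 1 was left out, 0 passed and the median was -0.04. TTC5, the reader of nascent tubulin, had 405, 368 and 413 normalized counts with DMSO and 366, 405 and 429 with YK-4-279, which overlapped, with a log2 fold change of 0.02 (limma adjusted p = 0.951). CNOT1, the scaffold of the deadenylase and the most abundant gene of that list, had 15095, 12820 and 12733 with DMSO and 12065, 11965 and 11786 with YK-4-279, with no overlap, and its log2 fold change of -0.18 did not pass the threshold (limma adjusted p = 0.170). It was -0.10 when DMSO replicate 1 was left out (limma adjusted p = 0.0914), and with the trend on GC content and length removed it was -0.16 and called (limma adjusted p = 0.0143). In the list of tubulin folding genes, 0 of 21 were called, beside 3.41% of all genes, and the median was -0.03, or 2 and -0.02 when DMSO replicate 1 was left out, where 13.1% of all genes were called. Its most abundant member CCT7, a subunit of the chaperonin that folds tubulin, had a log2 fold change of 0.01 (limma adjusted p = 0.945).

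Of 20 tubulin modifying enzymes tested, 1 was called lower and 0 higher, beside 2.15% and 1.26% of all genes, with a median of -0.02. The called gene was TPGS2, a subunit of a tubulin polyglutamylase, with 2300, 2124 and 2055 normalized counts in the DMSO replicates and 1626, 1657 and 1667 in the YK-4-279 replicates, a log2 fold change of -0.39 (limma adjusted p = 0.00741). Every treated library of TPGS2 was below every control. When DMSO replicate 1 was left out, 3 of the 20 were called (TPGS2 and TTL lower, VASH2 higher), beside 13.1% of all genes. VASH2, which removes the carboxyl-terminal tyrosine of alpha tubulin and was the most abundant of the list, had a log2 fold change of 0.13 (limma adjusted p = 0.193), and was called when DMSO replicate 1 was left out, with quantile normalization, and with the trend on GC content and length removed (limma adjusted p = 0.00499, 0.0418 and 0.00339). Of 30 microtubule-binding proteins tested, 1 was lower and 1 was higher, beside 2.15% and 1.26% of all genes, with a median of -0.01. Without DMSO replicate 1, 8 of the 30 were called, beside 13.1% of all genes. FIGNL1, a relative of microtubule-severing enzymes that acts in DNA repair, had means of 1401 ± 72.5 with DMSO and 1126 ± 21.0 with YK-4-279 (SD, n = 3 each) and a log2 fold change of -0.31 (limma adjusted p = 0.0226). MAP1A, a protein that binds along microtubules, rose from 2632 ± 83.1 to 3269 ± 259 (SD, n = 3 each, log2 fold change 0.31, limma adjusted p = 0.0240). DCX, the most abundant of that list, had a log2 fold change of -0.11 (limma adjusted p = 0.320), and -0.06 when DMSO replicate 1 was left out (limma adjusted p = 0.343). In limma the calls on TPGS2, FIGNL1 and MAP1A were lost when YK-4-279 replicate 1, 2 or 3 was left out, and those on FIGNL1 and MAP1A also without DMSO replicate 3. All 3 were also lost with eBayes without trend, those on FIGNL1 and MAP1A with a replicate block, and that on FIGNL1 with quantile normalization.

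Since tubulin served as a loading control in the study, 9 genes of proteins commonly used for that purpose were set beside the members. Of these, 2 were called lower and 0 higher, beside 2.15% and 1.26% of all genes, and the median was -0.10, beside -0.01. When DMSO replicate 1 was left out, 3 were called, all lower, beside 13.1% of all genes, and the median was -0.10. ACTB, the most abundant, had 46345, 46984 and 45725 normalized counts with DMSO and 44023, 45003 and 42274 with YK-4-279, with no overlap. Its log2 fold change of -0.08 was not past the threshold (limma adjusted p = 0.432). The genes called with all libraries were PCNA, the replication clamp, at -0.37 (limma adjusted p = 0.00741), and LMNB1, of the nuclear lamina, at -0.32 (limma adjusted p = 0.0109). Both calls were lost when YK-4-279 replicate 1, 2 or 3 was left out, and with eBayes without trend. GAPDH was also lower in every treated library than in every control, at -0.14 (limma adjusted p = 0.181). It was called when DMSO replicate 1 was left out, at -0.17 (limma adjusted p = 0.00338). The log2 ratio of mean summed normalized counts, YK-4-279 over DMSO, was -0.21 for the 4 alpha isotypes. These are mRNA levels, and protein was not measured in these libraries.

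The genes outside the family whose log2 values most resembled the log2 of the summed normalized count of the 10 members over the 6 libraries, among 10690 genes with a mean of at least 100, were RBBP7, MTR, ITGB3, GPI and GINS2. Their Pearson correlations were 0.997, 0.997, 0.997, 0.996 and 0.994, given as a description, since the 6 points are the same libraries in 2 groups and so hold the difference between the groups. RBBP7 encodes a histone-binding protein of chromatin complexes, MTR methionine synthase, ITGB3 an integrin subunit, GPI a glycolytic enzyme and GINS2 a subunit of the replicative helicase. RBBP7, ITGB3, GPI and GINS2 were lower with limma adjusted p-values of 0.0222, 0.0171, 0.0418 and 0.0320, and MTR had a limma adjusted p of 0.0804, or 0.00222 when DMSO replicate 1 was left out. All 4 calls were lost when YK-4-279 replicate 1, 2 or 3 was left out, those on RBBP7, GPI and GINS2 also without DMSO replicate 3, and that on GPI also without DMSO replicate 2. They were also all lost with eBayes without trend and with a replicate block, those on GPI and GINS2 with quantile normalization, and that on GPI without a filter on the mean and in edgeR.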

How the data were processed

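Per the labels and the study's methods, the authors cleaned reads with BBDuk, used STAR 2.7.9a to map the pairs (hg38) and obtain gene counts, and scaled the counts with DESeq2 1.44.0, so the deposited signal is a normalized count. The annotation and strand setting of the counting are not given in the sources used here. Of 35269 rows, 1 lacked a symbol and was dropped; at most 6 reads per library fell on it. Within 1e-06, 100% of the values were whole multiples of the smallest one in their library. In DMSO replicate 2 and YK-4-279 replicate 3 that smallest value was near 1 (0.9992 and 1.0005). In every library the smallest value was taken to be 1 read.

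Log2(normalized count + 1) was fitted by limma 3.58.1 (R 4.3.3, eBayes with a mean-variance trend), two-sided, and p was adjusted by Benjamini-Hochberg over genes with a mean of at least 10. The members and lists were chosen with earlier results of these data known. Genes named beside the members were TTC5, the most abundant of each list, up to 3 called genes per list with the largest change (mean of at least 100, no overlap), and the 5 that correlated most with the members' sum. The fit was repeated with changed pseudocounts, filters and scaling (TMM, quantile), with no trend in eBayes, blocking on replicate, omitting each library, and after subtracting a smooth dependence on GC content and transcript length (known for 98.4% of genes). Recovered reads were also tested by DESeq2 1.42.0 and by edgeR 4.0.16. Shares were recomputed with different lengths and gene sets. The code was tested on simulated data.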

Additional observations from a re-analysis of the deposited data

How the results depend on the processing

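The direction of TUBA1B, TUBB, TUBB4B, TUBA4A and TUBA1C was below 0 in each of 17 alternatives, as was that of TUBB6, which was never called. Their calls depended on single libraries. The companion lists, in the order used above, held 2, 13, 21, 20, 30 and 9 tested genes. The number of tubulin genes called lay between 0 and 5 when 1 library was omitted, that of all genes between 19 and 1823 (0.136% and 13.1%), and that in the companion lists between 0 and 16, against 5, 475 (3.41%) and 5 with all libraries. The lowest came without YK-4-279 replicate 1 and the highest of all genes without DMSO replicate 1, where all 475 were among the 1823; without YK-4-279 replicates 2 and 3 all genes numbered 23 and 46 (of the 19, 23 and 46, those higher were 15, 16 and 28, against 176 of 475), and without DMSO replicate 3, 242. With quantile normalization there were 3 tubulin genes and 277 genes in all (132 higher, 145 lower, 47.7% higher against 37.1%). With eBayes without trend limma called 0 tubulin genes, 33 genes in all (30 higher, 3 lower) and 0 in the companion lists. In that fit 6 tubulin genes and 2248 of the 13930 genes tested had an unadjusted p under 0.05. Removing the trend on GC content and length left the 5 tubulin genes called, 1671 genes in all (12.2% of 13705 tested) and 20 in the companion lists. Omitting DMSO replicate 1 as well, a setting chosen after seeing the data, these were 5, 2258 (16.5%) and 22. DESeq2 called 8 in the companion lists, beside 4.56% of all genes. Apart from fewer libraries where these were left out, the causes were not tested.

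Deviations from the group mean correlated at -0.0985, -0.0269 and -0.0267 between same-numbered libraries. With 3 libraries per group this cannot decide whether same-numbered libraries shared a batch, and the labels do not say. With a replicate block 3 tubulin genes (TUBA1B, TUBB and TUBB4B), 180 genes in all (1.29%) and 3 in the companion lists were called.

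Values near 0 changed sign. TUBA1A was -0.0056 after removing the trend on GC content and length, -0.02 without YK-4-279 replicate 2, and from -0.0304 (without DMSO replicate 3) to 0.0522 (without DMSO replicate 1) over omitted libraries. TUBB2B was from -0.0131 (without DMSO replicate 1) to 0.186 (without DMSO replicate 2), and -0.0201 without DMSO replicate 1 and the trend. CCT7 was -0.0166 with the trend removed, -0.0038 without YK-4-279 replicate 2, from -0.0305 (without DMSO replicate 1) to 0.0338 (without DMSO replicate 2), and -0.0432 without DMSO replicate 1 and the trend. TTC5 was -0.03 without DMSO replicate 2, and from -0.0356 (without YK-4-279 replicate 3) to 0.0793 (without YK-4-279 replicate 1). The share of TUBB4B in the beta pool, lower by 0.22 percentage points with YK-4-279, was higher by 0.0137 with no division by length.

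Depth limits TUBB3, and exact copies limit TUBB2A, TUBB2B and TUBB3. With 3 libraries per group, changes of the size of those in TUBA1C and TUBA4A lay near the threshold. TUBB3 did not pass a mean of at least 100 and has no value there.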

Other observations

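Ranks among abundant mRNAs were read after the values were seen and were not tested. Of 708 genes with a mean of at least 5000 normalized counts, TUBA1B, TUBB and TUBB4B ranked 4, 7 and 9 from the lowest log2 fold change, and TUBA1A ranked 547; the other 6 members were below that mean. The genes ranked 1, 2 and 3 were RRM2, IGF2 and TOP2A, and those between and after the tubulin genes were H2AX, MKI67, TMPO and VCAN at ranks 5, 6, 8 and 10.

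TUBA3FP, annotated outside the lists used here, was the most abundant of the other genes named as alpha or beta tubulins, with 56.7, 81.9 and 52.6 normalized counts with DMSO and 80.5, 80.4 and 103.1 with YK-4-279, which overlapped (limma adjusted p = 0.208). The pseudogene TUBAP2, below the filter on the mean, was lower in every treated library than in every control, with at most 15 reads in a library.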
